A study of Mus musculus with 4 samples.

Results

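Of 53883 merged open regions in 4 mouse skeletal muscles, 6737 were common non-promoter regions: they held an ATAC-seq peak in each of the 4 muscles, and none of those peaks was annotated as a promoter. They were 16% of the 42140 non-promoter regions, and 46.5% (95% Wilson interval 45.7 to 47.3) of the 14497 regions open in all 4 muscles, the other 7760 of which were promoters. The regions were chosen by the authors' peak calls and annotation, with peaks of different muscles joined when they shared at least 1 bp. The peak scores, which decide those calls, are therefore given below as a description only.

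The muscles were the extensor digitorum longus (EDL) and the quadriceps (Quad), both mostly fast and glycolytic, the slow soleus (Sol) and the diaphragm (Dia), from wild type C57BL/6 mice whose age the labels do not give. Each muscle is represented by 1 library that the labels call pooled, so no difference between muscles has a replicate check, no p-value is given, and a muscle cannot be told apart from its library. The shortest list was that of Dia with 21582 peaks, followed by Sol with 28784, EDL with 30136 and Quad with 40337. Peak scores are tag counts scaled by library size. If they are scaled to 10 M tags, as is the default of HOMER, the size of 1 tag in each list puts Sol at 105 M tags, EDL at 104 M, Dia at 99.3 M and Quad, the shallowest, at 78.1 M.

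Enhancers are stretches of DNA away from promoters where transcription factors bind and raise the transcription of a gene, often one at some distance. Such sites lose nucleosomes and become accessible to the Tn5 transposase, which ATAC-seq uses to cut and tag open DNA, but promoters of unlisted transcripts and insulators bound by CTCF are accessible too. In muscle, MEF2 factors and myogenic bHLH factors, which bind E-boxes, are known to act together at enhancers of contractile and metabolic genes. No enhancer mark was measured in these peak lists, so whether the common non-promoter regions act as enhancers was not tested.

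To show what these regions look like, the 200 bp at the centre of 5 of them are printed here, from the plus strand of mm10 (GRCm38, RefSeq), with the searched motif in capitals. For 4 motifs the region is the one with the highest mean score percentile that held the motif and lay nearest to a gene of a muscle list. For CTCF it was chosen among all genes. Gys1 encodes muscle glycogen synthase and its region, in intron 8 of that gene, holds a MEF2 site. Nfic encodes a nuclear factor I protein and its region holds the E-box CAGCTG, and Fbxo32 encodes the atrophy ubiquitin ligase atrogin-1 and its region, in intron 4 of that gene, holds the AP-1 site TGACTCA. The region of Xirp1, which encodes an actin-binding Xin repeat protein, holds the nuclear factor I palindrome TGGCNNNNNGCCA, and that of the deubiquitinase gene Usp5 holds CCANNAGNNGGC, the core of the CTCF motif.
Gys1, chr7:45444266-45444465: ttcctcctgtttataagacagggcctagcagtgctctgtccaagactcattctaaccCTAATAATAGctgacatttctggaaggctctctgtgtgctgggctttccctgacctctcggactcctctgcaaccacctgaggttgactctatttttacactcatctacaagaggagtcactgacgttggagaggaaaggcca
Nfic, chr10:81432953-81433152: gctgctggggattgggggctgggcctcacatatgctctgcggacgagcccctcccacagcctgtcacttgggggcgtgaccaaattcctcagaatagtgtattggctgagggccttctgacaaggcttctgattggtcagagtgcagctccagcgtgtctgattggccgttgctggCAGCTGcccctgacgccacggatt
Fbxo32, chr15:58204083-58204282: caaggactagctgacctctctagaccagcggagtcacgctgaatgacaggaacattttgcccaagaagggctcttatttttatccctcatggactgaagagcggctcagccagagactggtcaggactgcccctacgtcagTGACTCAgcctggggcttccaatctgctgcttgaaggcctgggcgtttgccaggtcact
Xirp1, chr9:120011219-120011418: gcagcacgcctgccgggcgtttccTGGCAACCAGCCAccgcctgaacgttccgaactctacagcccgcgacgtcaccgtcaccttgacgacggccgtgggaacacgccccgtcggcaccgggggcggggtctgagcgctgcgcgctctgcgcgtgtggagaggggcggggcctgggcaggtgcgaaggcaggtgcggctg
Usp5, chr6:124829038-124829237: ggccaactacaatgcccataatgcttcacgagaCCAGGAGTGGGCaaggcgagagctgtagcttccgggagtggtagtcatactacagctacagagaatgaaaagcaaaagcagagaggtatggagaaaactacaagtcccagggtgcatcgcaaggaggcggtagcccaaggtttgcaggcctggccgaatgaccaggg

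These windows differed in base composition and position. The Gys1 window was 48.5% G and C and lay 9564 bp downstream of the transcription start site (TSS), whereas the Xirp1 window was 72.5% G and C and lay at 12295 bp. The Usp5 window, the highest-ranked of the 5, lay in intron 1 only 369 bp from the TSS. Of the 20 motifs searched, the Nfic window also held NFY, that of Usp5 ETS, and that of Xirp1 the SP and KLF motif.

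All 4 lists gave the common non-promoter regions an intermediate rank, between promoters and regions called in 1 muscle. Their median score percentile was highest in Quad (67.4), lower in EDL (61.0) and Sol (60.3) and lowest in Dia (45.3), where the percentile ranks a peak among all peaks of its list. The 7760 common promoter regions had medians from 77.2 in Dia to 86.5 in Quad, and non-promoter regions open in 1 muscle had medians from 15 in Dia to 20.8 in Quad. The lowest rank was in the diaphragm list, which was also the shortest. There the common non-promoter peaks were 31.2% of all peaks and 53.2% of the non-promoter peaks, against 16.7% and 22.4% in the quadriceps list, which was the longest.

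**Figure D1:**
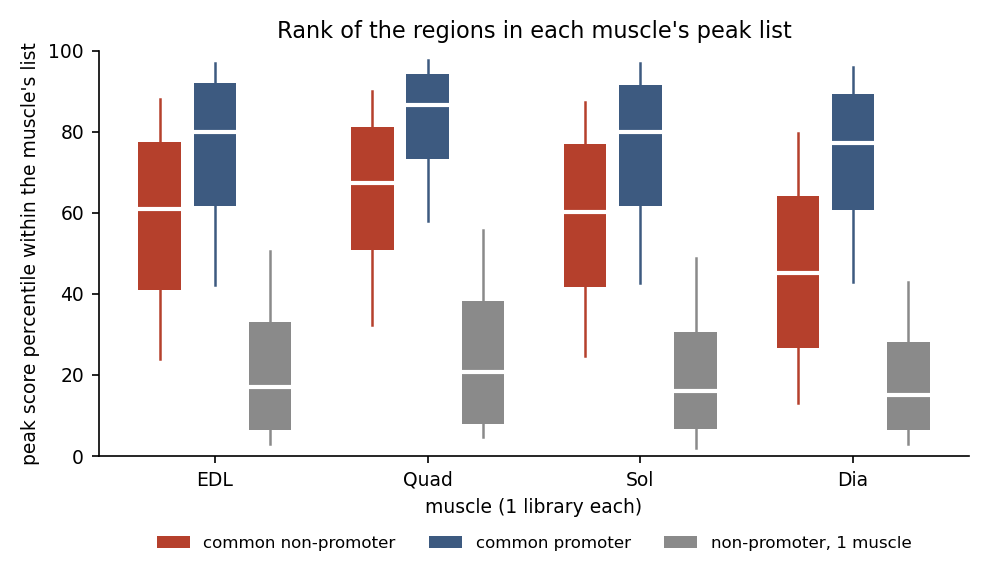
Peak score percentile within each muscle's list (y axis) by muscle (x axis) for common non-promoter regions, common promoter regions and non-promoter regions open in 1 muscle. Boxes span the lower to the upper quartile over regions, white lines are medians, and thin lines run from the 10th to the 90th percentile. In each list the common non-promoter median lies below the promoter median and above that of regions open in 1 muscle, and it ranges from 45.3 in Dia to 67.4 in Quad.

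Many of the regions were strong in every list. In the upper 50% of all 4 lists were 2444 of them, and 343 had a mean percentile above 90. At the weak end, 1567 (23.3%) fell in the lowest 25% of the diaphragm list, compared with 363 (5.39%) in the quadriceps list. Ranks were shared less closely than at promoters: Spearman's rho over the 6737 regions ran from 0.673 between EDL and Dia to 0.805 between EDL and Quad, while over the 7760 common promoter regions it ran from 0.901 to 0.922. The regions of one library share its depth and threshold, so these correlations describe the 4 libraries.

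Leaving out the high-copy and mitochondrial regions of the next paragraph, the 10 highest-ranked regions on autosomes and X were taken. All were nearest to genes outside the muscle lists described below. The 2 with the highest scores, in intergenic DNA of chromosome 2 nearest to Lrrc4c (98667012 to 98667255, 1199471 bp from its TSS) and of chromosome 9 nearest to 4933422A05Rik, lay wholly in sequence that the reference marks as repeats. Lrrc4c scored 222.1 in Quad, 200.7 in Dia, 198.8 in EDL and 171.1 in Sol, and no common region ranked above it in any list. A region nearest to Gm5458 was 97.5% repeat-masked. The other 7 were nearest to Ly6c2, Chl1, Brox, Pex2, Cic, Phf19 and Zfp574, with at most 34.0% masked bases. Among them Cic, which encodes the transcriptional repressor Capicua, lay in intron 1 at 422 bp and scored 41.9, 39.3, 36.4 and 37.3 in EDL, Quad, Sol and Dia. Zfp574, a zinc finger gene, had its region in the 5' UTR at 356 bp.

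Repeat-derived sequence was rare among the rest. In 16 regions the sequence was at high copy (a median of at least 10 genomic copies of its 31-base words) or matched the mitochondrial genome, and 76 had over 50% of their window masked (1.13%, against 3.72% of non-promoter regions open in 1 muscle). The 5 highest-ranked regions that were high-copy, mitochondrial or outside the assembled autosomes and X were nearest to Gm5458, Gad2, Mir101c (2 regions) and Dhrsx. The Gad2 region on chromosome 2 shared 70.6% of its 31-base words with the mitochondrial genome, and the Gm5458 region had a median of 30.5 copies. The Mir101c regions had 32.0 and 36.5 copies, and the Dhrsx region lay on an unlocalized scaffold of chromosome 4 whose sequence was not read. Whether reads from other copies set these scores was not tested.

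By annotation, 3113 of the common non-promoter regions (46.2%) lay in introns, 1189 of them in a first intron, and 3081 (45.7%) were intergenic. Exons and gene ends were thinly covered, with 126 regions in exons, 149 in 5' UTRs, 76 in 3' UTRs, 132 at transcription termination sites and 60 in non-coding exons. Compared with the 21276 non-promoter regions open in 1 muscle, the intron share was lower by 3.48 percentage points (members minus others -3.48, 95% Newcombe interval -4.85 to -2.11) and the 5' UTR share was higher by 1.46 points (1.11 to 1.85). The intergenic share was higher by 1.81 points (0.443 to 3.17). For first introns the difference was 0.663 points (-0.365 to 1.72), within counting error. Wilson and Newcombe intervals here cover counting error only, and regions are not replicates of a muscle.

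The common non-promoter regions lay closer to the nearest TSS than non-promoter regions open in fewer muscles. Their median distance to the nearest TSS was 22777 bp (quartiles 8219 and 53439 bp), and it was 24579 bp for regions open in 3 muscles, 25758.5 bp in 2 and 28398 bp in 1. Beyond 50 kb lay 26.9% of them, 7.19 points fewer (-7.19, -8.42 to -5.95) than the 34.1% of regions open in 1 muscle. Beyond 200 kb the shares were 3.46% and 6.6%. Within 1 kb of a TSS but outside the promoter class lay 464 regions (6.89%), against 4.15% of those open in 1 muscle.

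**Figure D2:**
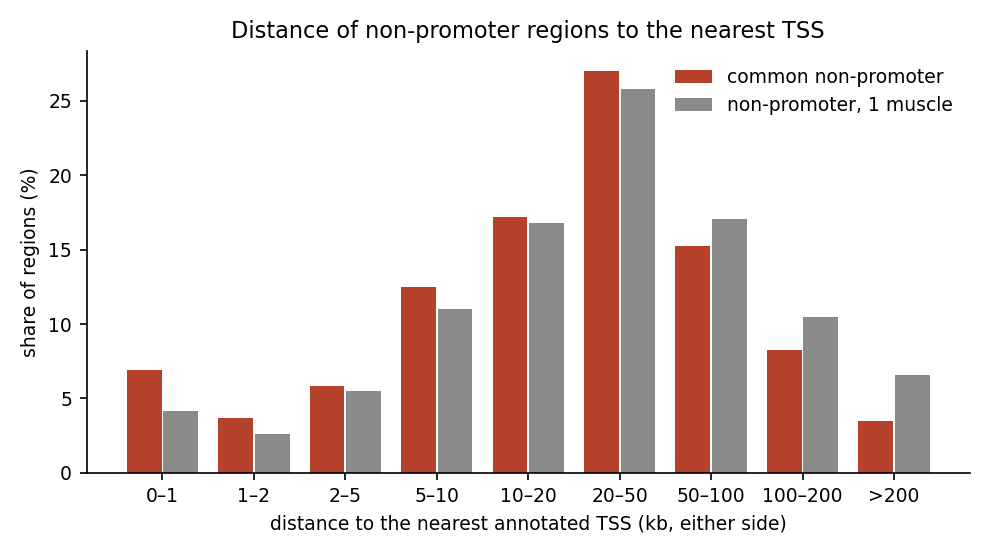
Share of regions in percent (y axis) by distance to the nearest annotated TSS in kb on either side (x axis), for the 6737 common non-promoter regions and the 21276 non-promoter regions open in 1 muscle. Between 20 and 50 kb lay 27% of the common regions and 25.8% of the others, and beyond 50 kb the bars of regions open in 1 muscle are higher.

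The promoter class ran from 1000 bp upstream to 100 bp downstream of a TSS, and the regions nearest to its border were looked up on each side. Just inside the non-promoter side were regions of Cttn at 102 bp, Id1 at -1008 bp, Gng11 at 108 bp, Cyfip1 at 110 bp and Aebp2 at 113 bp, where negative values lie upstream. Just on the promoter side were P4ha1, 3110056K07Rik and Sfmbt1 at 100 bp and Phf12 and Slc25a39 at -1000 bp. A further 458 regions open in all 4 muscles mixed promoter and non-promoter peaks and were counted as promoters. In a second annotation, GENCODE, 595 of the common non-promoter regions (8.83%) had a peak centre in the promoter interval of a transcript, against 3.37% of regions open in 1 muscle. Without them 6142 remained.

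The 6737 regions were nearest to 4555 genes, most of which (3197) had 1 region. Klf4, which encodes a Krüppel-like transcription factor, had the most, 12 of its 27 non-promoter regions, spread from -581420 to 17551 bp. The genes 9430078K24Rik and A630001O12Rik and Ppp1r12b, which encodes a muscle-expressed myosin phosphatase subunit, had 9 each. Next came 1700016G22Rik, Arhgap26, Ptprg and the corepressor gene Tbl1xr1 with 8 each, and Mbnl1, a splicing regulator of muscle, Pisd-ps3 and Sgms1 were among those with 7. At least 3 regions were found at 499 genes, and at least 5 at 82. The length of sequence around each gene was not taken into account, and no link from region to gene was measured.

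Some regions lay close together. With gaps of up to 12.5 kb, a limit chosen after values were seen, 1368 regions (20.3%) fell in 631 clusters, of which 16 held at least 4. The same share was not taken for other groups of regions, so it cannot be read as a trait of the common ones. The cluster between Tob2, an antiproliferative gene, and Tef, a clock-controlled transcription factor gene, held 6 in 28.7 kb. Clusters of 5 lay at Fosb and Ercc1, at Prx, Sertad1 and Sertad3, at Sfi1 and Pisd-ps1, and at Mir101c. Of the Mir101c cluster 3 regions were high-copy, and the largest cluster, 7 regions at Pisd-ps3, lay on an unplaced scaffold. Clusters of 4 included the stress- and exercise-inducible nuclear receptor gene Nr4a1, the transcription factor gene Klf10 and Tsc22d3, which encodes the glucocorticoid-induced leucine zipper.

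Genes of 10 muscle lists were then followed. Of the 976 non-promoter regions nearest to their 195 genes, 202 (20.7%, 18.3 to 23.4) were open in all 4 muscles, beside 16% over all non-promoter regions. For 7 lists of markers of other cell types the share was 33 of 203 (16.3%, 11.8 to 21.95). The difference between the 2 groups of lists was 4.44 points, with an interval of -1.75 to 9.61 that includes 0. In the upper 50% of each list the muscle lists were at 15.9%, below the 17.1% of all non-promoter regions, and with 50% reciprocal overlap they were at 13.2% against 10.6%. The lists were written with earlier results of these data known and their shares are a description.

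**Figure D3:**
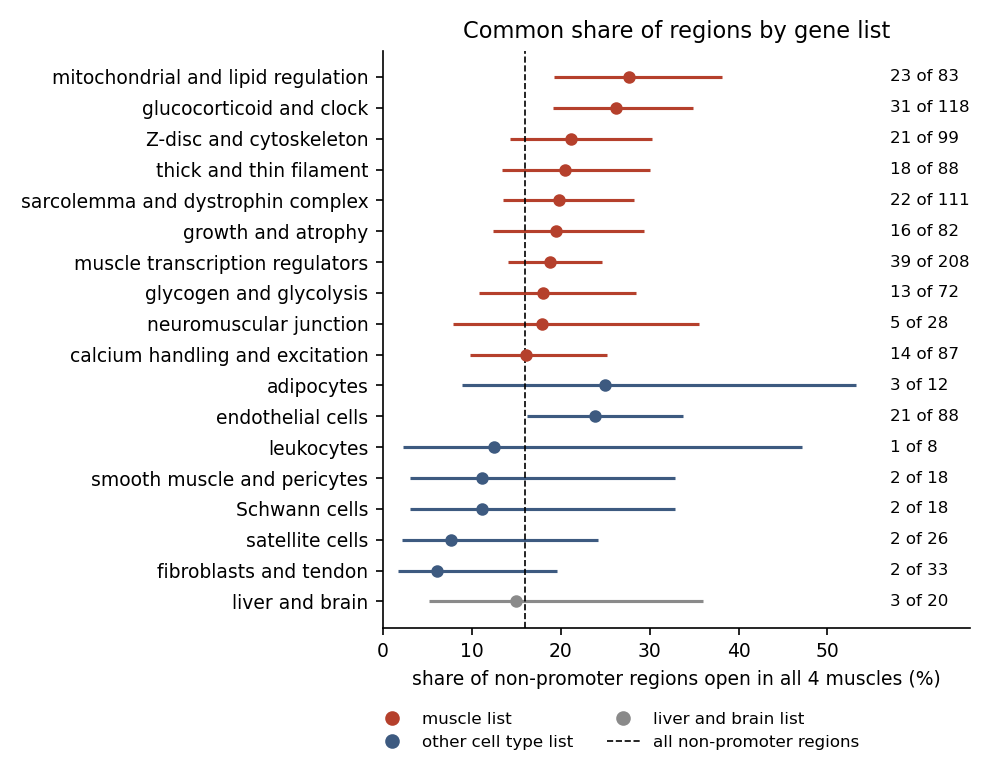
Share of the non-promoter regions nearest to each list's genes that were open in all 4 muscles (x axis, percent) by gene list (y axis), with 95% Wilson intervals and the number of regions at the right. The dashed line marks 16% over all non-promoter regions. Mitochondrial and lipid regulation and glucocorticoid and clock genes have the highest shares of the muscle lists, and the intervals of most lists cross the line.

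The contractile apparatus had common regions at both giant proteins. In the list of thick and thin filament genes 18 of 88 regions (20.5%) were common, 3 of them at Ttn, which encodes titin, and 2 each at Neb, which encodes nebulin, the M-band gene Myom1, the tropomyosin gene Tpm1 and the myosin light chain gene Myl1. The strongest Ttn region, -15921 bp from the TSS, stood at a percentile of 92.5 in Sol, 91.5 in Quad, 89.2 in EDL and 71.9 in Dia. For Acta1, the gene of skeletal actin, 1 region at 11608 bp stood between 69.8 and 92.4 in the 4 lists.

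Of the Z-disc and cytoskeleton list 21 of 99 regions (21.2%) were common. Pdlim5, a PDZ-LIM protein gene, had 4 of its 25 regions among them, a share near the 16% over all non-promoter regions. Myot, the myotilin gene, had 3 of 8. Both regions of Myoz1, which encodes the calcineurin-binding protein calsarcin-2, were common. The calcium handling and excitation list held 14 of 87 (16.1%), close to the background, with 4 each at Jph1 and Jph2, the junctophilin genes that tether the sarcoplasmic reticulum to the T-tubule. At Ryr1, the calcium release channel gene, the only non-promoter region was common; it lay in intron 1 at 1364 bp and stood between percentiles 79.1 in Dia and 95.4 in EDL.

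Sarcolemma and dystrophin complex genes had 22 of 111 (19.8%), with 6 of 20 at Utrn, which encodes the dystrophin relative utrophin, 4 of 19 at the membrane repair gene Dysf and 4 of 17 at Sspn, the sarcospan gene. Dmd, the dystrophin gene, had 0 of 4, too few to set against the background. The neuromuscular junction list held 5 of 28 (17.9%), 1 each at Chrnb1, Colq, Dok7, Lrp4 and Musk. The Chrnb1 region, annotated at a transcription termination site and 535 bp from the TSS of this acetylcholine receptor subunit gene, ranked between 98.1 and 98.3 in the 4 lists.

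Muscle transcription regulators held 39 of 208 regions (18.8%, 14.0 to 24.6), an interval that includes the 16% over all non-promoter regions. Nfia, of the nuclear factor I family, had 6 of 26, and the TEAD factor gene Tead1 5 of 17. The class IIa deacetylase gene Hdac4 had 5 of 14, Mef2c 4 of 15 and Mef2a 3 of 13. The strongest Nfia region, in intron 1 at -5318 bp, stood highest in Quad (percentile 95.9) and lowest in Dia (88.0). Myog, the myogenin gene, and Eya1, which encodes a transcriptional coactivator, had 4 and 9 non-promoter regions, none of which was common. Both numbers are too small to set against the background.

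Of the metabolic lists, mitochondrial and lipid regulation had 23 of 83 (27.7%, 19.2 to 38.2), with 5 of 10 regions at Lpl, which encodes lipoprotein lipase, and 3 each at the fatty acid transporter gene Cd36, the orphan receptor gene Esrrg and the fatty acid sensor gene Ppard. Ppargc1a, which encodes the coactivator PGC-1alpha, had 2 common regions of 15, at 512934 and 481068 bp, a number too small to set against the background. Glycogen and glycolysis genes had 13 of 72 (18.1%, 10.9 to 28.5), among them 3 at the branching enzyme gene Gbe1, 2 at the lactate dehydrogenase gene Ldha and 2 at Ppp1r3a, the glycogen-targeting phosphatase subunit. Hk2, the hexokinase gene, had 7 non-promoter regions and none was common, too few to set against the background.

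Glucocorticoid and clock genes had 31 of 118 (26.3%, 19.2 to 34.9). Most of them lay at 5 genes: 6 of 21 regions at the glucocorticoid receptor gene Nr3c1, 6 of 10 at its target Klf9, 5 of 16 at Tsc22d3, 5 of 12 at Zbtb16, a zinc finger gene induced by glucocorticoids, and 5 of 29 at the nuclear receptor gene Rora, a share near the background. Of the core clock genes, Arntl had 1 of 7, Nr1d1 1 of 2 and Per1 1 of 1. None was common at Per2 (of 4), Per3 (of 1), Cry1 (of 4), Cry2 (of 2) or Nr1d2 (of 4). The glucocorticoid target Fkbp5 also had none (of 3). Each of these counts is too small to set against the background. The 1 region of Per1, a core clock gene, at -3819 bp was among the strongest, with a percentile of 99.5 in EDL and 97.9 in Dia, and it lay in a promoter interval of GENCODE. Growth and atrophy genes had 16 of 82 (19.5%), with 3 at the forkhead factor gene Foxo3 and 2 each at Fbxo32, Igf1r, Insr and Klf15. Igf1 had 10 non-promoter regions and Trim63, which encodes the ubiquitin ligase MuRF1, had 6, none of them common. These too are too few to set against the background.

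Genes of other cell types in the tissue also had common regions. The endothelial list held 21 of 88 (23.9%, 16.2 to 33.7), with 4 at the VEGF receptor gene Flt1 and 3 each at Erg, an endothelial transcription factor gene, and Vwf, which encodes von Willebrand factor. The other 6 lists were small: 3 of 12 regions for adipocytes, 2 of 33 for fibroblasts and tendon, 2 of 26 for satellite cells, 2 of 18 each for Schwann cells and for smooth muscle and pericytes, and 1 of 8 for leukocytes. In a reference list of liver and brain genes 3 of 20 were common. Across the 7 lists 22 of 59 marker genes were nearest to a common region. The libraries were made from whole muscle, so nuclei of fibers and of vessels cannot be told apart, and the part of each cell type in the results was not tested.

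Few common non-promoter regions were graded between the fast and the other muscles. The rule itself limits this number, since a region too weak to be called in any 1 list is not in the set. Scores were put on a log2 scale and centred on each list's median over all regions open in 4 muscles. A region was called graded when both EDL and Quad exceeded both Sol and Dia, or the reverse, with means at least 1 log2 unit apart. In each direction 17 regions met this (0.252%, 0.158 to 0.404), beside 0.117% of all 14497 regions open in 4 muscles toward EDL and Quad and 0.117% toward Sol and Dia, since none of the 7760 common promoter regions did (0%, upper limit 0.0495%). The equal counts hold for the log2 scale. With a percentile difference of at least 30 points, 7.11% were graded toward EDL and Quad and 0.653% toward Sol and Dia. Percentiles were not centred by list, and the regions' median percentile was 45.3 in Dia, 60.3 in Sol, 61.0 in EDL and 67.4 in Quad. How far this offset set the imbalance was not tested. In the upper 50% of each list, where the higher score limit narrows the set further, none was graded in either direction. The median range over the 4 lists was 0.52 log2 units at common non-promoter regions and 0.37 at common promoter regions, which also had higher scores.

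**Figure D4:**
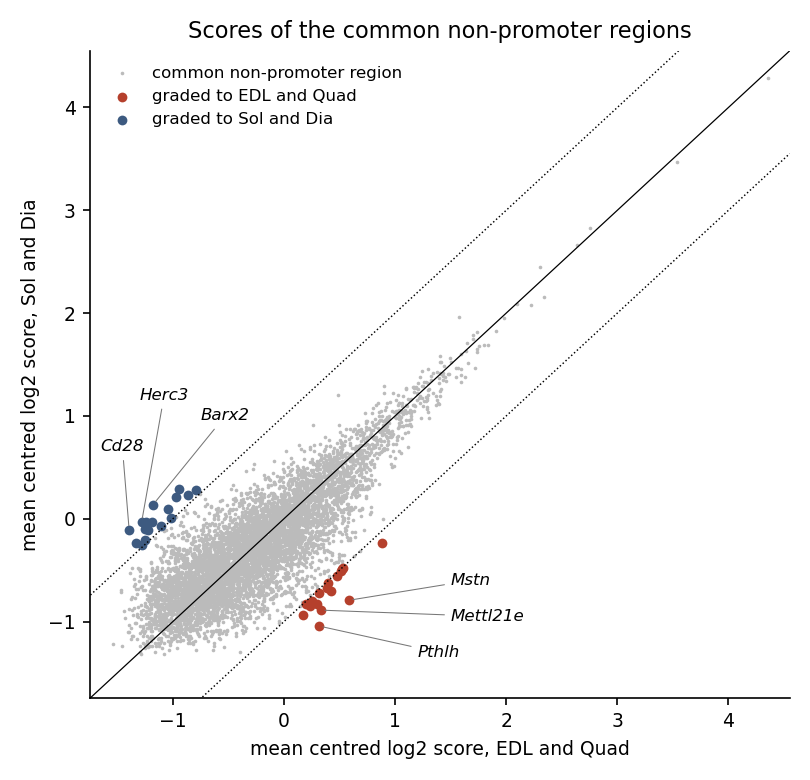
Mean centred log2 score in Sol and Dia (y axis) against that in EDL and Quad (x axis), 1 grey point for each of the 6737 common non-promoter regions. Colored points are the 17 regions graded in each direction, the solid line marks equal scores and dotted lines a difference of 1. Most points lie between the dotted lines, which the graded regions lie outside.

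The largest difference toward EDL and Quad was at Mstn, which encodes myostatin, an inhibitor of muscle growth. Its region on chromosome 1 (53037554 to 53037894, intergenic, -23976 bp) scored 14.6 in EDL and 16.3 in Quad, against 4.59 in Sol and 6.55 in Dia. The 2 fast muscles were above both others, by 1.38 log2 units in the means. Exact Poisson intervals of these scores were 12.4 to 17.1 in EDL and 5.05 to 8.34 in Dia. They cover counting error only and test nothing here, since the region was chosen for this difference. Next came Pthlh, the gene of parathyroid hormone-related protein, with scores of 10.5, 15.6, 4.59 and 4.63 in EDL, Quad, Sol and Dia, and Mettl21e, a methyltransferase gene, with 11.9, 14.1, 5.45 and 4.83. Regions of Itga2b and Pgm2, a phosphoglucomutase gene, differed by 1.13 and 1.12, and both lay in a promoter interval of GENCODE.

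Of the list genes, Myf6, Ldha and Myom2 had graded regions besides Mstn, all higher in EDL and Quad. The Myf6 region lay -68418 bp from this myogenic factor gene, in exon 35 of a transcript with 45 exons. It scored 14.6, 9.99, 5.54 and 5.04 in EDL, Quad, Sol and Dia. The Ldha region at -18163 bp scored 13.9, 10.8, 5.35 and 5.54, while the second Ldha region, at -6796 bp, differed by 0.42 log2 units and was not graded. The Myom2 region, 94646 bp from this M-band gene, scored 15.1, 12.2, 6.98 and 5.44. Together 4 of the 202 common regions of the muscle lists were graded toward EDL and Quad and 0 toward Sol and Dia, beside 0.252% of all common non-promoter regions in each direction, counts too small to read a direction for muscle genes from.

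Toward Sol and Dia, the largest difference was at Barx2, a homeobox gene, whose region on chromosome 9 (31925798 to 31926123, -12633 bp) scored 10.5 in Sol and 10.4 in Dia, against 3.85 in EDL and 5.38 in Quad. The means differed by -1.315 (EDL and Quad minus Sol and Dia). Regions near Cd28, which encodes a T cell receptor for costimulation, Herc3, 4921513I03Rik and Lgi1 followed with differences from -1.29 to -1.21, and the 4921513I03Rik region lay in a promoter interval of GENCODE. The Lgi1 region scored 13.6 in Sol but 6.35 in Dia, and its Dia score was closer to those of EDL (4.62) and Quad (4.10) than to that of Sol. These regions were picked for their scores, which are a description of 4 libraries. The windows of the first region in each direction are printed with any of the 20 motifs in capitals. That of Mstn held a MEF2 site, which reads as a match on both strands, and that of Barx2 held none of the letters searched.
Mstn, chr1:53037596-53037795: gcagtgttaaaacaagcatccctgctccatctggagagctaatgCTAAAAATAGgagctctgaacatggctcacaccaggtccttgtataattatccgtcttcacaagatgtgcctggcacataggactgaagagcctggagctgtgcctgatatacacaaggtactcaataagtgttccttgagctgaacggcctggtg
Barx2, chr9:31925854-31926053: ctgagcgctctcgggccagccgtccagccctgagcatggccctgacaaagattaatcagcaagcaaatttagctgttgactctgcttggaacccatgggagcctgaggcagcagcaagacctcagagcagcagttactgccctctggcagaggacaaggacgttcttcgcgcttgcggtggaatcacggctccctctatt

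Sequence was not used to choose the regions. The 200-bp windows of the common non-promoter regions were 54.6% G and C (SD 7.31 over 6725 windows), between the 50.5% of regions open in 1 muscle and the 64.5% of common promoter regions, and their flanks 2 kb downstream were 45.6%. CpG-rich windows, with over 50% G and C and a CpG ratio above 0.6, made up 14.8% of them, against 4.68% of regions open in 1 muscle and 82.8% of promoters. This share fell with distance, from 46.2% within 5 kb of a TSS to 10.1% between 5 and 50 kb and 5.62% beyond 50 kb.

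Motifs were searched on both strands as exact letters. MEF2 sites, in the usual degenerate form of the motif, occurred in 5.78% of the common non-promoter windows, 3.61% of windows open in 1 muscle, 1.68% of flanks and 0.619% of common promoter windows. The difference from regions open in 1 muscle was 2.17 points (1.58 to 2.81). The myogenic E-box CAGCTG occurred in 25.1%, 20.3%, 9.85% and 10.6% of these groups, a difference of 4.82 points (3.66 to 5.99) from regions open in 1 muscle. Both motifs of muscle factors were thus more frequent in the common non-promoter windows than in these 3 groups, but not than in non-promoter regions open in 3 muscles, where MEF2 was at 6.12% and the E-box at 26.4%. When only the upper 50% of each list was kept, both differences from regions open in 1 muscle turned negative, -0.331 for MEF2 (interval -1.31 to 0.739) and -2.95 for the E-box (-4.85 to -0.981). Against regions open in Quad alone, within 4 bins of the Quad list from the weakest to the strongest scores, the E-box difference was 1.21 (-2.67 to 5.71), 2.30 (-0.384 to 5.08), 4.12 (1.25 to 6.90) and 3.53 (-2.45 to 8.63), so 3 of the 4 intervals included 0.

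Motifs of ubiquitous promoter factors were also more frequent than in regions open in 1 muscle. SP and KLF sites (CCCCGCCC) occurred in 6.50% of common non-promoter windows and 1.97% of those open in 1 muscle, and ETS sites (CCGGAAG) in 3.7% and 1.69%. NFY sites (AGCCAAT) occurred in 4.92% and 3.08%, CRE sites (TGACGTCA) in 0.848% and 0.371%, and NRF1 sites in 0.684% and 0.118%. The E-box CACGTG, bound by USF and clock factors, was at 3.88% and 2.89%. In common promoter windows these 6 motifs were more frequent still, for example SP and KLF sites at 31.5% and ETS sites at 19.5%. They were concentrated near a TSS: SP and KLF sites occurred in 16.3% of common non-promoter windows within 5 kb of a TSS and in 3.20% of those beyond 50 kb. At matched score the difference for SP and KLF sites was smaller and its intervals included 0: within the same bins of the Quad list, the common regions differed from regions open in Quad alone by -0.349, 0.314, 0.103 and -0.429 points from the weakest to the strongest bin. ETS sites differed by 0.677, 0.604 and 0.265 in bins 1 to 3, with intervals that included 0, and by 4.29 (1.70 to 5.59) in bin 4. NRF1 sites changed sign in the weakest and strongest bins (-0.0946 and -0.345), NFY sites in the 2 weakest (-0.186 and -0.248) and CRE sites in bin 3 (-0.0329). Each of these negative differences had an interval that included 0.

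MEF2 had the opposite course with distance, at 2.63% within 5 kb, 6.27% between 5 and 50 kb and 6.67% beyond 50 kb. AP-1 sites (TGACTCA), bound by FOS and JUN, likewise rose from 6.36% to 11.1% and 12.6%. They occurred in 10.7% of all common non-promoter windows against 8.18% of those open in 1 muscle (2.54 points, 1.73 to 3.39). In the upper 50% of each list this difference was -0.746 (-2.04 to 0.627). In the Quad score bins it was 4.12 (1.12 to 7.90), 2.48 (0.544 to 4.57), 4.31 (2.37 to 6.13) and 1.33 (-3.01 to 4.39). CTCF sites were most frequent at middle distances, 6.75% between 5 and 50 kb. Their overall share of 5.74% was 0.840 points (0.231 to 1.49) above that of regions open in 1 muscle. With each list limited to its 20000 top peaks by score this difference was -0.723 (-1.48 to 0.0764). The glucocorticoid response element GNACANNNTGTNC was at 1.80% against 1.06% (0.737 points, 0.410 to 1.11), but in the Quad score bins it differed by 0.0708, 0.0127, 0.756 and 1.64 points, each with an interval that included 0. Against non-promoter regions open in 3 muscles, AP-1 differed by 0.995 points (-0.0712 to 2.05) and CTCF by -0.623 (-1.47 to 0.212). There the glucocorticoid response element differed by 0.178 points (-0.284 to 0.633). All of these intervals included 0.

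**Figure D5:**
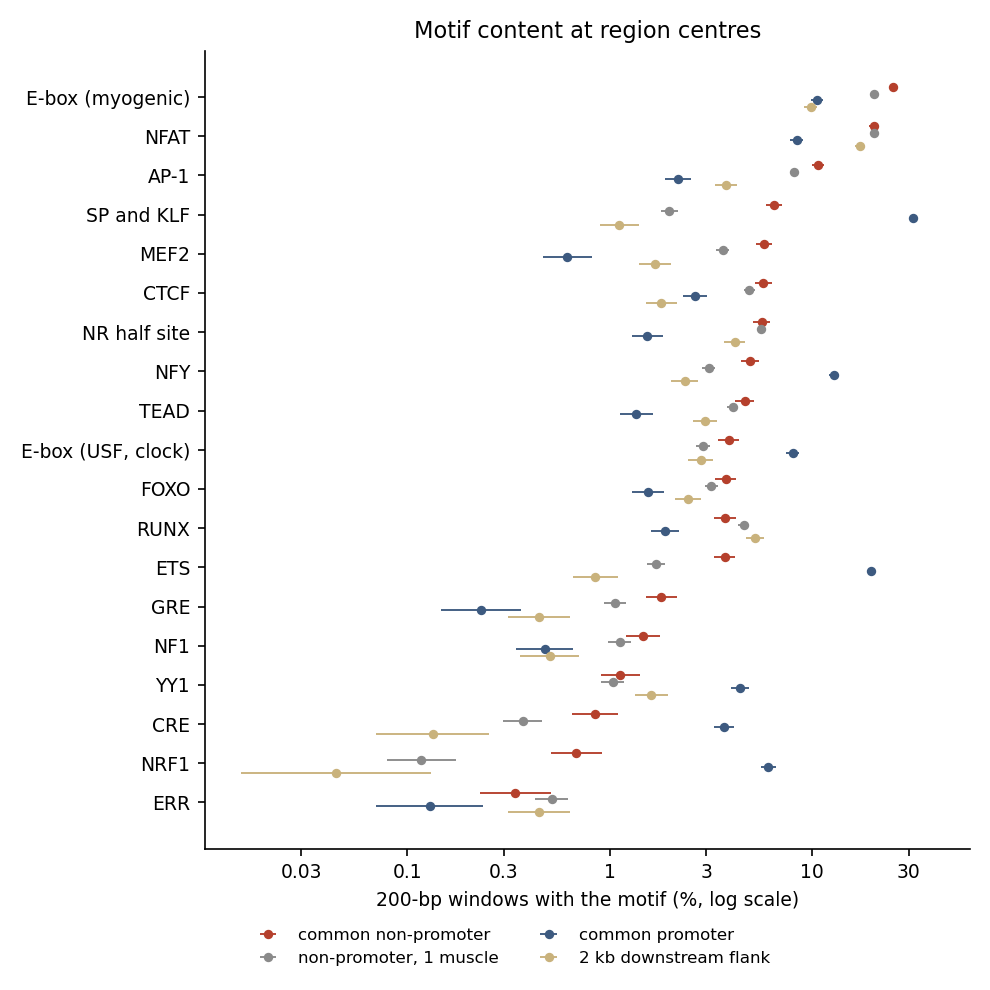
Share of 200-bp windows that hold each motif shown (x axis, percent on a log scale) by motif (y axis), with 95% Wilson intervals, for common non-promoter regions, non-promoter regions open in 1 muscle, common promoter regions and the flanks of the common non-promoter regions. Of the 4 groups shown, MEF2, the myogenic E-box and AP-1 are most frequent in common non-promoter windows, and SP and KLF, ETS and NRF1 in promoter windows.

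The other motifs differed little from regions open in 1 muscle. The nuclear factor I palindrome (0.338 points, 0.0378 to 0.680), TEAD sites ACATTCC (0.606, 0.0552 to 1.19) and forkhead sites GTAAACA (0.563, 0.0712 to 1.09) were slightly more frequent, and RUNX sites AACCACA less frequent (-0.881, -1.40 to -0.329). Each of these 4 changed sign under some setting, always with an interval that included 0. These were nuclear factor I in Quad score bins 2 and 4 (-0.576 and -0.340), TEAD in bin 3 (-0.0188), RUNX in bins 3 and 4 (0.05 and 1.54) and forkhead sites with the 20000 top peaks by score (-0.0442). For the nuclear receptor site AAGGTCA, the ERR site TCAAGGTCA, which contains it, NFAT sites TGGAAA and YY1 sites AAGATGGC the intervals included 0. A match is a run of letters and was not tested for binding, and the groups compared differed in base composition, score and peak width as well as in the number of muscles.

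Common regions near genes of the muscle lists held MEF2 sites in 17 of 202 windows (8.42%, 5.32 to 13.1) and the myogenic E-box in 58 (28.7%, 22.9 to 35.3), intervals that include the 5.78% and 25.1% of all common non-promoter windows. Of the 33 windows near markers of other cell types none held a MEF2 site (upper limit 10.4%) and 8 held the E-box (24.2%, 12.8 to 41.0), also near those shares. ETS sites were in 5 of the 33 (15.2%, 6.65 to 30.9) and in 2 of 202 windows of the muscle lists (0.990%, 0.272 to 3.54), beside 3.7% of all. Among the graded regions MEF2 occurred in 2 of the 17 higher in EDL and Quad and in 1 of the 17 higher in Sol and Dia, and AP-1 in 1 and 5. These last counts are too small to read an order from.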

How the data were processed

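ATAC-seq was analysed from 1 pooled peak list for each of EDL, Quad, Sol and Dia. The authors aligned reads to mm10 with Bowtie2, and HOMER kept 1 tag per position, called peaks in each library with its factor mode and annotated them. Tn5 shifting and removal of mitochondrial or repeat reads are not given in the sources used here. The deposited peak score is a tag count that the authors' software scaled by library size. Peak widths and thresholds differ between lists. Scores below 10 were whole multiples of 1 tag (tolerance 0.1 tag), which gave the depths.

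Peaks were merged at 1 bp overlap. Each region took the annotation of its highest-ranked peak. Coordinates are 1-based on mm10, and sequence came from GRCm38, inside whose chromosomes all regions on assembled chromosomes ended. Python 3.11.15, numpy 2.4.6, pandas 2.3.3, scipy 1.17.1 and matplotlib 3.10.9 were used, after tests on simulated data. The files give no repeat class, so the filter on repeats used 31-base word copies (at least 10), mitochondrial words and, as an added alternative, soft masking.

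The regions, motifs and gene lists were chosen with earlier results of these data known. Named were the 10 highest mean percentiles and the 5 highest left out by the repeat and chromosome filter, the 10 genes with most regions (with ties), 5 graded regions per direction, up to 4 genes per list, 5 regions on each side of the promoter border, and 1 sequence per motif. List genes without a common region, further list genes, clusters and the sequences of graded regions were picked after values were seen. Alternatives were score limits, overlap, distance and annotation of promoters, chromosomes, repeats, window, background and scaling. Some genes that met these rules, and 1 of the 20 motifs, are not reported here.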

Additional observations from a re-analysis of the deposited data

How the results depend on the processing

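The counts depend on how many weak peaks a list holds. With each list limited to its 20000 top peaks by score, the upper 50% of each list and 50% reciprocal overlap, the common non-promoter regions numbered 4410, 2445 and 4452, their share of regions open in 4 lists was 39.0%, 29.1% and 43.9%, and the share beyond 50 kb was 23.6%, 18.0% and 25%. Leaving out peaks within 1 kb or 5 kb of a TSS gave shares of 43.2% and 38.8%, and 29.0% and 32.3% beyond 50 kb. Leaving out GENCODE promoters gave 42.4%. The muscle gene lists had 15.9% in the upper 50% and 13.2% with reciprocal overlap, beside 17.1% and 10.6% over all non-promoter regions. The share graded to EDL and Quad was 0% in the upper 50% and 7.11% with a percentile difference of 30 points. That graded to Sol and Dia was 0% with the 20000 top peaks and in the upper 50%, 0.135% with reciprocal overlap and 0.653% with percentiles. Percentiles, unlike log2 scores, were not centred by list.

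Motif differences from regions open in 1 list, in percentage points, reversed as follows. In the upper 50% they were -0.331 for MEF2, -2.95 for the E-box CAGCTG, -1.41 for the nuclear receptor site and -0.746 for AP-1. With the 20000 top peaks they were -0.723 for CTCF and -0.0442 for FOXO. Within 4 bins of the Quad list by score, each 25% of its peaks from the weakest (bin 1) to the strongest (bin 4) and compared with regions open in Quad alone, bin 1 gave 6.91 for NFAT, -0.349 for SP and KLF, -0.0946 for NRF1 and -0.186 for NFY. Bin 2 gave 3.88 for NFAT, -0.576 for NF1 and -0.248 for NFY. Bin 3 gave 3.7 for NFAT, -0.0188 for TEAD, -0.0329 for CRE and 0.0500 for RUNX. Bin 4 gave -0.340 for NF1, 1.54 for RUNX, -0.429 for SP and KLF and -0.345 for NRF1. NFAT was at 1.18 in 100-bp windows and 2.90 against the flank, and YY1 at -0.477 against the flank. MEF2 kept its direction in each bin, with an interval that included 0 in bin 2 (1.02). In the bins the interval also included 0 for the glucocorticoid response element in all 4, for ETS in 3 and for the E-box CAGCTG in 3. CTCF fell within counting error in the upper 50% (0.358), in 100-bp windows (0.236) and in bin 4 (0.320). For the nuclear receptor site, ERR, NFAT and YY1 the difference itself had an interval that included 0, so their sign is not settled. With the 20000 top peaks and in the upper 50%, NFAT was at -1.83 (-3.22 to -0.407) and -3.57 (-5.32 to -1.75). YY1 was at 0.371 (0.0269 to 0.769) and 0.562 (0.0597 to 1.17) there. The nuclear receptor site was at 1.48 against the flank and 2.66 in bin 3, and ERR at -0.139 in 100-bp windows. All of these kept the direction of the main difference, with intervals that excluded 0. Among the reversals given above, the interval excluded 0 only for NFAT, for YY1, and for the E-box CAGCTG and nuclear receptor site in the upper 50%. The cause of these reversals was not tested.

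No paired analysis was possible because each muscle has 1 pooled library, and leaving out a replicate was not possible for the same reason. Depth is inferred from score steps and sets where weak peaks are called.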
